A study of Mus musculus with 10 samples.

Results

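The collagen genes were taken as all genes whose symbol in the platform's probe annotation has the form Col, a number, a and a number. Of the 18193 genes named by single-gene probe sets, 42 genes of 26 collagen types met that rule, and 82 of the 45037 probe sets measured them. They were examined in gastrocnemius, a calf muscle, with 5 Affymetrix arrays of Skn-1 deficient male mice and 5 of wild type male mice, which the labels call biological replicates. The gene Skn-1, today called Pou2f3, encodes a POU-family transcription factor required by taste cells and tuft cells. The labels give both genotypes a mixed 129 x C57BL/6J background, and per the labels' protocols the deficient line was crossed back to C57BL/6J for over 10 generations. All mice were 12 to 16 weeks old, ate chow and were fasted for 18 h before dissection. The loss is not limited to a cell type by any promoter or Cre that the labels name.

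A collagen is built from chains that wind round each other in a triple helix. Each chain must be hydroxylated and folded in the secretory path, and most are trimmed and cross-linked outside the cell. In muscle, fibroblasts make most of the fibrillar collagens (types I, III and V) of the sheaths around fibres and bundles. Type IV forms the network of the basement membrane that wraps each muscle fibre and capillary, and type VI forms fine filaments between that membrane and the fibrils.

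Values are those deposited by the authors, read as log2 from their range of 4.93 to 13.96, since no log base is stated in the sources used here. Over the 10 arrays 86.2% of all probe sets had a standard deviation (SD) at or below 0.01, and these are called low-variation. The others, 13.8% of all, are called ordinary. Among the collagens 18 of 82 probe sets (22.0%) were ordinary, from 14 genes in 9 types. The ordinary collagen probe set nearest to that limit was Col14a1, with an SD of 0.0750, and the nearest low-variation one was Col6a1, with an SD of 0.000554. Array medians lay between 6.23 and 6.24, and across ordinary probe sets the correlation between arrays ran from 0.950 to 0.993. The 1 probe set of Pou2f3 itself was of low variation, at 6.47 ± 0.00029 in Skn-1 deficient and 6.47 ± 0.00024 in wild type muscle (SD, n = 5 each, exact two-sided permutation p = 0.571), so it does not check the labels.

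Marker genes of muscle fibres were at the top of the scale. Acta1, skeletal muscle actin, stood at 13.96 in every array, and Ckm, muscle creatine kinase, averaged 13.74 ± 0.0781 in Skn-1 deficient and 13.76 ± 0.0622 in wild type muscle (SD, n = 5 each). Markers of other tissues stood apart in single libraries. The desmosomal gene Dsp was above 7 in Skn-1 deficient arrays 1 and 4 and in wild type arrays 1 and 3, and the B cell gene Ms4a1 was above 7 in Skn-1 deficient array 5 and wild type array 3. These 5 arrays are named below where a collagen value moves with them. In such bulk samples, fewer cells of a type and less RNA per cell cannot be told apart.

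The sequences upstream of Col1a2 and Col3a1 are shown because these fibrillar genes were high and low in the same arrays, as described below. They come from RefSeq (GRCm38.p6), whose promoter table matched 33 of the 42 collagen genes and 10 of the 14 with an ordinary probe set. Col1a1, which followed Col1a2 most closely, was not matched, so its sequence is not shown. Col1a2 (chr6:4505368-4505617, plus strand) and Col3a1 (chr1:45311288-45311537, plus strand) are given as the 250 bases before the annotated start, 5′ to 3′. Capitals mark matches to TATAAA (the TATA box), CCAAT or GGGCGG (the GC box) on either strand.
Col1a2: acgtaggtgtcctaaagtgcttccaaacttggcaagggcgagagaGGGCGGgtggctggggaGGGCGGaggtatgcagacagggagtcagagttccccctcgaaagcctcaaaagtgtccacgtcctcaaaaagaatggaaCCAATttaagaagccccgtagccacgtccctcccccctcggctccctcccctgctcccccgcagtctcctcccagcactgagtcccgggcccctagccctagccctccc
Col3a1: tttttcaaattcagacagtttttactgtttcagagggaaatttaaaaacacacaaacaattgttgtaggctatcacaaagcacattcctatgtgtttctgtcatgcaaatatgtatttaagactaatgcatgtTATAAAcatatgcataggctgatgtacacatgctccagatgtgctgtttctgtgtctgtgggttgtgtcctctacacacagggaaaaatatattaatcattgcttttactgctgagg
The Col1a2 stretch held 1 CCAAT, 109 bases before the start, and 2 copies of GGGCGG, 205 and 188 bases before it. The Col3a1 stretch held 1 TATAAA, 117 bases before the start, and no match to the other motifs. Of 32851 mouse promoter windows of the same length, 12.4% held TATAAA, 33.8% held CCAAT and 32.7% held GGGCGG, and no printed copy overlapped another. A match is only a description of the letters, and factor binding was not measured. Col4a1 and Col4a2 lie head to head on chromosome 8 and are read in opposite directions. Their annotated starts in the same table overlap by 22 bases (chr8:11312805-11312826, with Col4a2 on the plus strand and Col4a1 on the minus strand), a stretch inside both transcripts that is not printed.

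No collagen passed the test between Skn-1 deficient and wild type muscle, and the largest average difference was that of Col1a1, a type I chain, at 0.38 (log2). With limma and Benjamini-Hochberg adjustment, 0 of 82 collagen probe sets passed an adjusted p of 0.05, where 0.191% of all probe sets passed. On 1 probe set per gene, the brightest, 0 of 42 collagen genes passed, where 0.0275% of all genes did. Before adjustment, 1 of 82 collagen probe sets had a p under 0.05 (6.62% of all probe sets). It was a low-variation one of Col27a1, a collagen of cartilage (limma adjusted p = 0.683). Among the 18 ordinary collagen probe sets this number was 0, where 9.92% of all ordinary ones had such a p. In all 82 the ranges of the genotypes overlapped, where 1.60% of all probe sets and 3.96% of the ordinary ones had no overlap. Of the ordinary collagen probe sets 12 averaged higher and 6 lower in Skn-1 deficient muscle (66.7% higher, against 49.2% of all ordinary ones). By gene, 9 of the 14 brightest probe sets averaged higher, where 47.0% of all genes with an ordinary brightest probe set did. The median difference was 0.07 (log2) over the ordinary collagen probe sets and -0.0021 over all ordinary ones, and several probe sets measure the same gene.

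**Figure D1:**
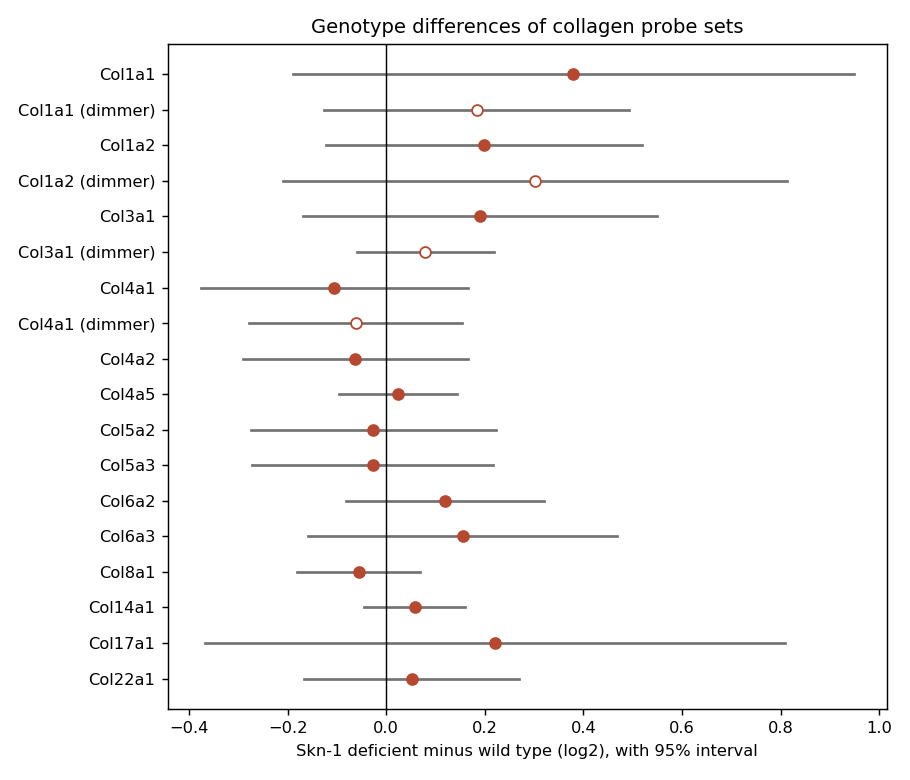
Difference of Skn-1 deficient minus wild type (log2, horizontal axis) for the 18 ordinary collagen probe sets, with the 95% interval from limma as a line. Filled points are the brightest probe set of a gene and open points a dimmer one. Every interval includes 0, and the point farthest from 0 is Col1a1 at 0.38.

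Type I collagen is the main fibril of tendon and of the outer muscle sheaths. Col1a1, one of its chains, had the largest SD over the 10 arrays among the ordinary collagen probe sets, 0.430. Its values were 7.89, 8.68, 8.60, 7.995 and 7.91 in Skn-1 deficient arrays 1 to 5, against 7.56, 7.47, 7.57, 8.19 and 8.37 in wild type arrays 1 to 5. Skn-1 deficient arrays 2 and 3 were the highest of all, wild type arrays 1, 2 and 3 were the lowest, and wild type arrays 4 and 5 lay within the deficient range. The means were 8.21 ± 0.391 and 7.83 ± 0.417 (SD, n = 5 each), a difference of 0.38 ± 0.25 (SE, limma adjusted p = 0.915). Read as a fold this is 1.30 times, with a 95% interval from 0.877 to 1.93. The highest array was 2.31 times the lowest. A dimmer Col1a1 probe set averaged 7.60 ± 0.253 in Skn-1 deficient and 7.42 ± 0.181 in wild type muscle (SD, n = 5 each), a difference of 0.18.

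Col1a2, the partner chain of type I, followed the same arrays. Its values were 11.23, 11.70, 11.68, 11.37 and 11.27 in Skn-1 deficient muscle, against 10.998, 11.10, 11.20, 11.37 and 11.58 in wild type muscle. Skn-1 deficient arrays 2 and 3 were again the highest and wild type arrays 1, 2 and 3 the lowest, with overlap in between. The means were 11.45 ± 0.226 in Skn-1 deficient and 11.25 ± 0.229 in wild type muscle (SD, n = 5 each), and the difference of 0.20 ± 0.14 (SE) did not pass (limma adjusted p = 0.928). A dimmer Col1a2 probe set gave a difference of 0.30. With 1 array left out, the brighter probe sets gave between 0.26 (without Skn-1 deficient array 2) and 0.51 (without wild type array 5) for Col1a1 and between 0.14 (without wild type array 1) and 0.28 (without wild type array 5) for Col1a2.

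Col3a1 encodes the chain of type III collagen, which forms thinner fibrils in the inner sheaths. It had 10.70, 11.26, 11.41, 11.03 and 11.05 in Skn-1 deficient arrays, against 10.60, 10.76, 10.996, 10.93 and 11.22 in wild type arrays. Array 1 was the lowest of its group in both genotypes, and the groups overlapped. Both of these arrays had Dsp above 7. Skn-1 deficient array 4 (11.03) and wild type array 3 (10.996), also with Dsp above 7, were not low. The difference was 0.19 ± 0.16 (SE, limma adjusted p = 0.944), from means of 11.09 ± 0.271 in Skn-1 deficient and 10.90 ± 0.237 in wild type muscle (SD, n = 5 each). A dimmer probe set of Col3a1 differed by 0.08. Leaving out 1 array gave between 0.11 (without Skn-1 deficient array 3) and 0.29 (without Skn-1 deficient array 1).

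Type V collagen starts new fibrils and limits their width. Its chain Col5a2 had 8.59, 8.86, 8.998, 8.55 and 8.70 in Skn-1 deficient arrays, against 8.53, 8.74, 8.77, 8.80 and 8.99 in wild type arrays. Both groups covered almost the same range, and the difference was -0.03 ± 0.11 (SE, 95% interval -0.27 to 0.22). Col5a3, a rarer chain, had 7.57, 7.69, 7.67, 7.39 and 7.72 in Skn-1 deficient arrays, against 7.34, 7.67, 7.59, 7.65 and 7.92 in wild type arrays. Its lowest and highest arrays were both wild type, and the difference was -0.03 as well. Col5a3 lies on chromosome 9, as Pou2f3 does. The other collagen genes of that chromosome (Col6a4, Col6a5, Col7a1 and Col12a1) had low-variation probe sets only. In all, 6 of the 8 ordinary fibrillar probe sets averaged higher and 2 lower in Skn-1 deficient muscle, with a median difference of 0.19, and 0 passed. The other 6 fibrillar genes (Col2a1, Col5a1, Col11a1, Col11a2, Col24a1 and Col27a1) had no ordinary probe set.

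**Figure D2:**
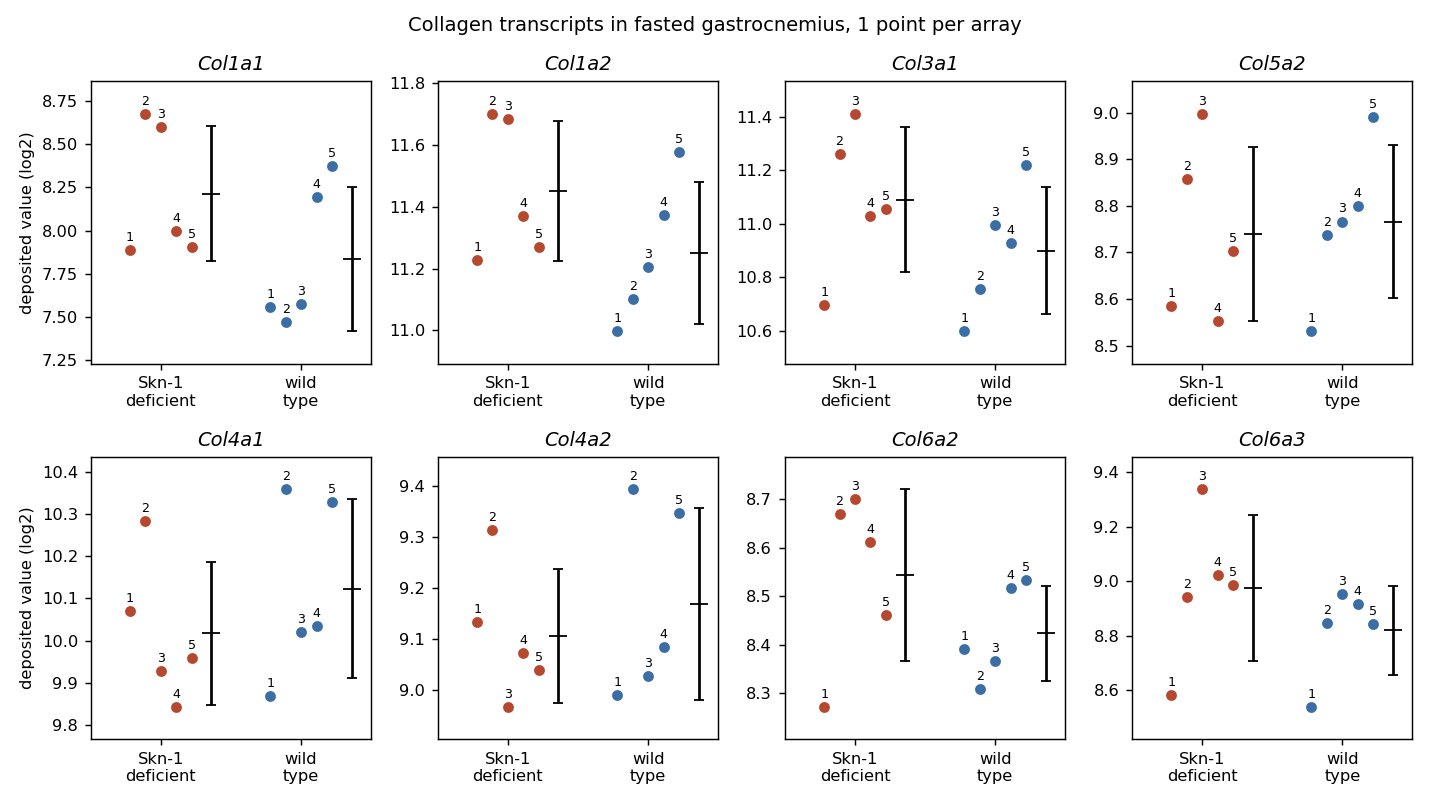
Deposited value (log2, vertical axis, its own scale in each panel) of 8 collagen genes, 1 point per array with its replicate number, for Skn-1 deficient and wild type muscle. Bars beside the points give the mean ± SD (n = 5 each). In each panel the groups overlap. Skn-1 deficient arrays 2 and 3 are the highest for Col1a1, Col1a2 and Col3a1.

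Of the basement membrane collagens, the type IV chains Col4a1 and Col4a2 averaged slightly lower in Skn-1 deficient muscle and within the spread between arrays. Both chains join in the same trimer. Col4a1 had 10.07, 10.28, 9.93, 9.84 and 9.96 in Skn-1 deficient arrays, against 9.87, 10.36, 10.02, 10.04 and 10.33 in wild type arrays. Wild type arrays 2 and 5 and Skn-1 deficient array 2 were the highest, and the groups overlapped. Means of 10.02 ± 0.170 in Skn-1 deficient and 10.12 ± 0.212 in wild type muscle (SD, n = 5 each) gave a difference of -0.11 ± 0.12 (SE, limma adjusted p = 0.969). Its dimmer probe set differed by -0.06.

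Col4a2 had 9.13, 9.31, 8.97, 9.07 and 9.04 in Skn-1 deficient arrays, against 8.99, 9.39, 9.03, 9.08 and 9.35 in wild type arrays. The same arrays were high as for Col4a1. The difference was -0.06, from means of 9.11 ± 0.131 in Skn-1 deficient and 9.17 ± 0.188 in wild type muscle (SD, n = 5 each). Leaving out 1 array moved both chains: Col4a1 lay between -0.17 (without Skn-1 deficient array 2) and -0.05 (without wild type array 2), and Col4a2 between -0.11 and -0.0065 without the same arrays. Col4a5, a chain of less common type IV trimers that is encoded on the X chromosome, lay between 7.03 and 7.24 in Skn-1 deficient arrays and between 7.004 and 7.21 in wild type arrays, a difference of 0.02. The chains Col4a3, Col4a4 and Col4a6 had low-variation probe sets only.

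Genes of type VI collagen are mutated in the human muscle diseases of the Ullrich and Bethlem kind. Its chain Col6a2 had 8.27, 8.67, 8.70, 8.61 and 8.46 in Skn-1 deficient arrays, against 8.39, 8.31, 8.37, 8.52 and 8.53 in wild type arrays. Skn-1 deficient arrays 2, 3 and 4 were above every wild type array, but deficient array 1 was the lowest of all 10. The difference was 0.12 ± 0.09 (SE, limma adjusted p = 0.934), and it was 0.08 without Skn-1 deficient array 3 and 0.19 without Skn-1 deficient array 1. Col6a3, a longer chain, had 8.58, 8.94, 9.34, 9.02 and 8.99 in Skn-1 deficient arrays, against 8.54, 8.85, 8.95, 8.92 and 8.84 in wild type arrays. Array 1, with Dsp above 7 in both genotypes, was the lowest in both groups. Skn-1 deficient array 4 (9.02) and wild type array 3 (8.95), also with Dsp above 7, were not low. The Col6a3 difference was 0.15 ± 0.14 (SE, limma adjusted p = 0.950). It was 0.06 without Skn-1 deficient array 3 and 0.25 without Skn-1 deficient array 1. The partner chain Col6a1 had no ordinary probe set, and neither had Col6a4 or Col6a5.

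Of the collagens that sit on the surface of fibrils without forming them (the FACIT group), Col14a1 and Col22a1 had ordinary probe sets. Col14a1 lay between 6.91 and 7.12 in Skn-1 deficient arrays and between 6.90 and 7.07 in wild type arrays, a difference of 0.06 ± 0.04 (SE). Col22a1, found where muscle joins tendon, had 7.30, 7.27, 7.31, 7.13 and 7.09 in Skn-1 deficient arrays, against 7.20, 7.29, 6.83, 7.26 and 7.26 in wild type arrays. Wild type array 3 was the lowest of the 10, and the difference was 0.05. Col8a1, a short collagen of vessel walls, lay between 7.11 and 7.35 in Skn-1 deficient arrays and between 7.21 and 7.38 in wild type arrays, a difference of -0.06. Neither member of the multiplexin group, Col15a1 and Col18a1 of basement membranes, had an ordinary probe set. The same held for Col8a2, Col9a1, Col9a2, Col9a3, Col10a1, Col13a1, Col16a1, Col19a1, Col20a1, Col23a1, Col25a1 and Col26a1. In total 28 collagen genes had low-variation probe sets only, and their differences have no size that can be read.

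Col17a1 was highest in arrays that also had high epidermis markers. It encodes a transmembrane collagen that anchors basal skin cells to the layer beneath. Its values were 6.44, 5.49, 5.56, 6.66 and 5.55 in Skn-1 deficient arrays, against 5.70, 5.74, 6.00, 5.63 and 5.52 in wild type arrays. The 2 highest Skn-1 deficient arrays and the highest wild type array were among the 4 with Dsp above 7. The remaining one, wild type array 1, stood at 5.70, below wild type array 2 (5.74), where Dsp was 5.34. The keratin gene Krt5 of basal skin cells stood at 7.49 and 8.17 in Skn-1 deficient arrays 1 and 4 and at 7.68 and 6.99 in wild type arrays 1 and 3, and between 5.85 and 6.04 in the other 6. Krt10, of the upper skin layers, stood at 8.90 and 9.17 in those Skn-1 deficient arrays and at 7.07 and 7.82 in those wild type arrays. In the other 6 arrays Krt10 lay between 6.68 and 6.94. Wild type array 1 was thus high for Dsp and Krt5 but not for every skin marker. There Krt1 (5.87), Krtdap (5.80) and Flg (5.40) lay within the range of the other 6, and Lor (6.46) lay below it. Of 14 epidermis and hair markers, 13 were ordinary and none passed, where 0.0275% of all genes did. In Skn-1 deficient muscle 11 averaged higher and 2 lower, where 47.0% of all genes with an ordinary brightest probe set averaged higher. Relative to its mean, the list stood highest in Skn-1 deficient arrays 1 and 4, at 0.81 and 1.07. The smallest p-values in this list were those of the hair follicle keratins Krt71, which averaged 5.94 ± 0.0681 in Skn-1 deficient and 6.97 ± 1.35 in wild type muscle, and Krt25, with 5.84 ± 0.0949 in Skn-1 deficient and 6.98 ± 1.56 in wild type muscle (SD, n = 5 each). Their limma adjusted p-values were 0.973 and 0.984. Both were high only in wild type arrays 1 and 3, at 8.89 and 7.90 for Krt71 and at 9.10 and 8.21 for Krt25. The summed level of the list on the linear scale ran from 857 to 3178 in Skn-1 deficient and from 859 to 2284 in wild type arrays. The genotype difference of Col17a1 was 0.22 ± 0.26 (SE, limma adjusted p = 0.970) with all arrays and -0.10 without the 4 arrays.

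**Figure D3:**
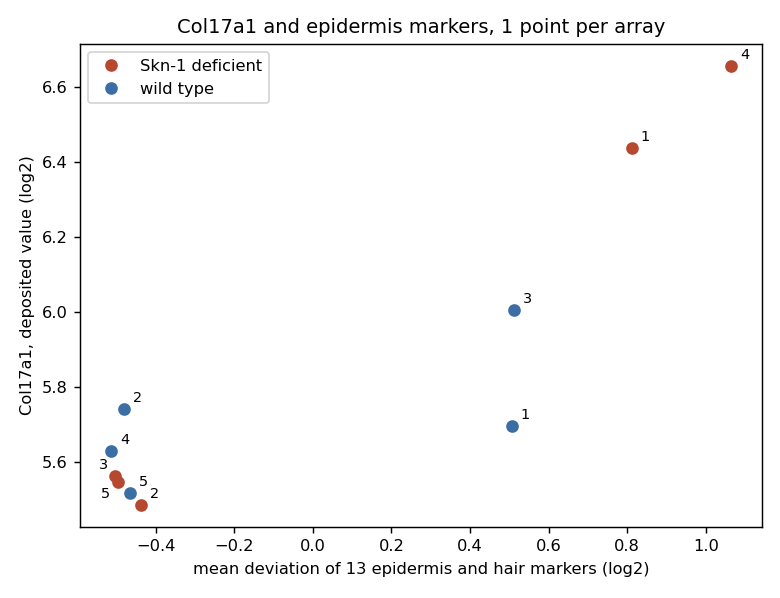
Col17a1 (log2, vertical axis) against the mean deviation of 13 epidermis and hair markers from their means over the 10 arrays (log2, horizontal axis), 1 numbered point per array of Skn-1 deficient and wild type muscle. Skn-1 deficient arrays 4 and 1 are highest on both axes, and on the horizontal axis wild type arrays 3 and 1 lie between them and the other 6.

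Collagen types were then compared with each other across the arrays. Relative to the mean of the 10 arrays, the genes of types I and III (Col1a1, Col1a2 and Col3a1) averaged -0.19, 0.42, 0.44, 0.01 and -0.05 in Skn-1 deficient arrays 1 to 5, against -0.40, -0.35, -0.20, 0.04 and 0.27 in wild type arrays 1 to 5 (log2). Deficient arrays 2 and 3 and wild type array 5 were the highest. The type IV genes Col4a1 and Col4a2 averaged 0.00, 0.20, -0.16, -0.15 and -0.10 in Skn-1 deficient arrays, against -0.17, 0.27, -0.08, -0.04 and 0.23 in wild type arrays. Wild type array 2 was thus the highest for type IV and among the lowest for types I and III, and Skn-1 deficient array 3 was the reverse.

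**Figure D4:**
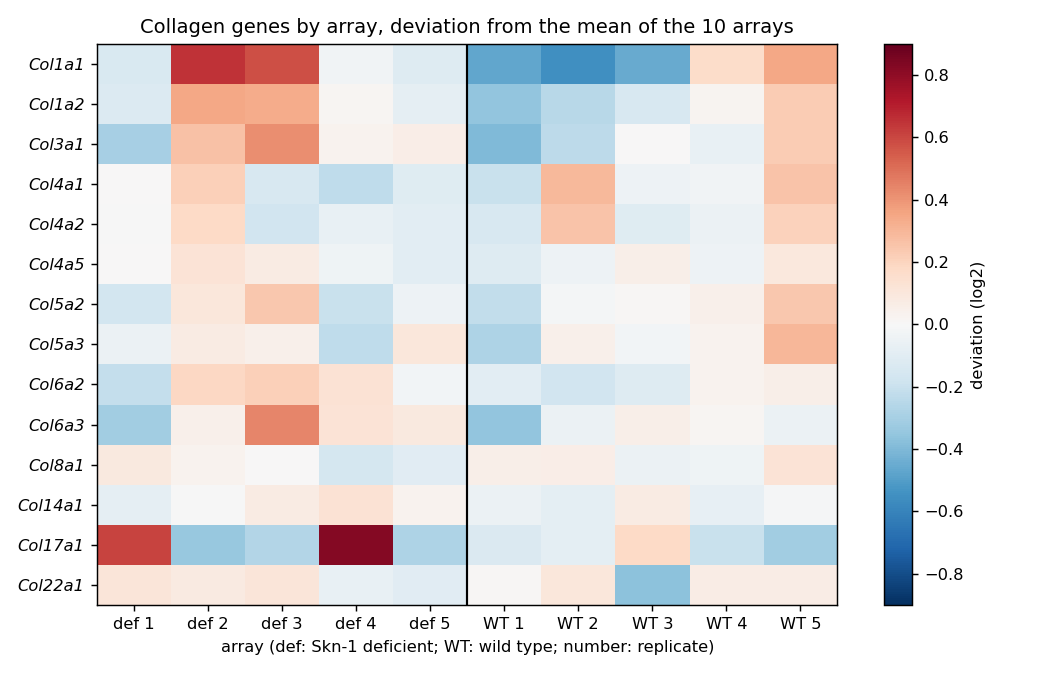
Deviation from the mean of the 10 arrays (log2, colour scale) for the brightest ordinary probe set of 14 collagen genes (rows) in 5 Skn-1 deficient arrays (def, left) and 5 wild type arrays (WT, right). Col1a1, Col1a2 and Col3a1 share high values in deficient arrays 2 and 3, while Col4a1 and Col4a2 are high in deficient array 2 and low in deficient array 3. Col17a1 is high in deficient arrays 1 and 4.

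The log2 ratio of a type I or III gene to a type IV gene asks whether the balance of fibrils and basement membrane differed between genotypes. These ratios were added after the data were seen, and all 6 averaged higher in Skn-1 deficient muscle. That direction was fixed by the choice of genes, since each first gene averaged higher and each second gene lower. The p-values do not account for this choice, and Col4a5, Col5a2 and Col5a3 were not used. The difference was 0.48 for Col1a1 over Col4a1 (exact two-sided permutation p = 0.0794) and 0.44 for Col1a1 over Col4a2 (exact p = 0.119). It was 0.30 for Col1a2 over Col4a1 (exact p = 0.0635) and 0.26 for Col1a2 over Col4a2 (exact p = 0.111). It was 0.30 for Col3a1 over Col4a1 (exact p = 0.135) and 0.25 for Col3a1 over Col4a2 (exact p = 0.175). None passed: adjusted over the 6 ratios, which share genes, the exact p was 0.162 for 5 of them and 0.175 for the last. The smallest p that 5 against 5 arrays allow is 0.00794. Within a group the SD of these ratios ran from 0.224 to 0.417, so the differences were of about the size of the spread between arrays.

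Col1a1 and Col1a2 moved together across arrays, and so did Col4a1 and Col4a2. Of 8 pairs that share a trimer, a fibril or the basement membrane zone, 4 had ordinary probe sets in both genes, and with 5 pairs added later 9 correlations were computed. Col1a1 and Col1a2 had r = 0.968 and rho = 0.988 over 10 arrays (permutation p = 2e-05, adjusted p = 0.00018 for r). Without the 2 arrays farthest from the median of Col1a1, r was 0.926 (exact permutation p = 0.00062). On deviations from the genotype means it was 0.960. Col4a1 and Col4a2 had r = 0.945 and rho = 0.855 (permutation p = 0.00064, adjusted p = 0.00144 for r), and r = 0.866 without the 2 farthest arrays (exact permutation p = 0.0134).

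Pairs of genes from different fibrillar types were also correlated. Col1a1 and Col3a1 had r = 0.824 and rho = 0.830 (permutation p = 0.00425, adjusted p = 0.00637 for r). Without the 2 farthest arrays r was 0.663 and did not pass (exact permutation p = 0.0768), with fewer arrays and a narrower range. It was 0.789 on deviations from the genotype means (permutation p = 0.0174) and 0.894 without the 4 arrays with epidermis markers (n = 6, exact permutation p = 0.0208). Leaving out 1 array gave 0.766 to 0.886. Col3a1 and Col5a2 had r = 0.801 and rho = 0.745 (permutation p = 0.00609, adjusted p = 0.00783 for r), and r = 0.618 without the 2 farthest arrays (exact permutation p = 0.0985). Without the 4 arrays with epidermis markers, r of this pair was 0.788 (n = 6, exact permutation p = 0.0736), and on deviations from the genotype means it was 0.905 (permutation p = 0.00221). Col6a2 and Col6a3, added after the data were seen, had r = 0.724 (permutation p = 0.0156, adjusted p = 0.0175) and rho = 0.600 (adjusted permutation p = 0.0812). Their r was 0.426 without the 2 farthest arrays (exact permutation p = 0.314), 0.634 without Skn-1 deficient array 1 and 0.596 without Skn-1 deficient array 3, and did not pass in any of these. As a description over the same 10 arrays, with no test, r was 0.92 between Col1a2 and Col3a1, 0.82 between Col5a2 and Col5a3 and 0.16 between Col1a1 and Col4a1. The type IV chain Col4a5 had r = 0.67 with Col1a1, 0.78 with Col1a2 and 0.71 with Col3a1, and 0.49 with Col4a1 and 0.37 with Col4a2. Probe sets of the same gene had r = 0.872 for Col1a1, 0.936 for Col1a2, 0.692 for Col3a1 and 0.973 for Col4a1. Their rho was 0.733, 0.939, 0.539 and 0.915 in that order. For Col3a1 rho did not pass on all 10 arrays (adjusted permutation p = 0.114). The Col3a1 r did not pass without Skn-1 deficient array 2 (0.641) or array 3 (0.611).

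Genes that fold, trim, cross-link, sense or degrade collagen gave no call either. Each of the lists that follow had 0 adjusted calls, where 0.0275% of all genes passed. Calls are thus rare in any list. Of all genes with an ordinary brightest probe set, 47.0% averaged higher in Skn-1 deficient muscle. Of 17 measured genes of collagen folding, 4 were ordinary, 3 averaging higher and 1 lower in Skn-1 deficient muscle. P4hb, a subunit of the enzyme that hydroxylates proline, averaged 9.60 ± 0.0879 in Skn-1 deficient and 9.64 ± 0.0746 in wild type muscle (SD, n = 5 each), a difference of -0.04. Ppib, a prolyl isomerase of the endoplasmic reticulum, differed by 0.06. Of 10 genes of processing and cross-linking, 4 were ordinary and all 4 averaged higher. Pcolce, which enhances the removal of the procollagen tail, averaged 8.77 ± 0.112 in Skn-1 deficient and 8.62 ± 0.0539 in wild type muscle (SD, n = 5 each). Its difference of 0.15 ± 0.05 (SE) had an unadjusted limma p of 0.0241 and an adjusted p of 0.834, where 6.72% of genes with an ordinary brightest probe set had an unadjusted p under 0.05. Sparc, a collagen-binding protein, differed by 0.11.

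Of 12 genes of collagen breakdown, 5 were ordinary and all 5 averaged higher in Skn-1 deficient muscle, where 47.0% of all such genes did. Members of a list are measured on the same arrays and are not separate evidence. Relative to its mean, this list was highest in Skn-1 deficient array 2 (0.21) and lowest in wild type array 1 (-0.24). Mmp2, a gelatinase, differed by 0.17, and Timp3, an inhibitor of such enzymes, by 0.15. Of 8 receptors 2 were ordinary: the integrin chain Itgb1 differed by 0.05 and the receptor kinase Ddr2 by 0.02. Of 9 genes of transforming growth factor beta signalling, which induces collagen, 6 were ordinary, 3 averaging higher and 3 lower. The ligand Tgfb2 differed by 0.22 and the signal carrier Smad3 by 0.41 ± 0.24 (SE, limma adjusted p = 0.984).

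Markers of the cells that make collagen were set beside these values. Of 11 measured fibroblast markers 9 were ordinary, 8 averaging higher and 1 lower, and none passed. Of all genes with an ordinary brightest probe set, 47.0% averaged higher. The receptor gene Pdgfra averaged 9.24 ± 0.0902 in Skn-1 deficient and 9.14 ± 0.127 in wild type muscle (SD, n = 5 each), and Cd34 differed by -0.08. The summed fibroblast level on the linear scale ran from 5734 to 6298 in Skn-1 deficient and from 4942 to 6434 in wild type arrays. Of 7 tendon markers 5 were ordinary, 3 averaging higher and 2 lower, and none passed. The tendon gene Tnmd averaged 7.63 ± 0.256 in Skn-1 deficient and 7.67 ± 0.156 in wild type muscle (SD, n = 5 each), while the matrix genes Fmod and Comp differed by 0.18 and 0.09. The summed tendon level ran from 2652 to 3435 in Skn-1 deficient and from 2281 to 3288 in wild type arrays. Relative to its mean, the tendon list stood at 0.25 and 0.21 in Skn-1 deficient arrays 2 and 3, the arrays highest for type I, and at 0.18 in wild type array 1, which was the lowest for Col1a2 and Col3a1. No cartilage and bone marker of 6 was ordinary, Acan among them. Of the endothelial markers, from cells that lie on type IV collagen, 4 of 8 were ordinary, 1 averaging higher and 3 lower, and none passed, with summed levels of 1242 to 1773 in Skn-1 deficient and 1259 to 1595 in wild type arrays. Emcn, a surface protein of capillary and venous endothelium, averaged 7.57 ± 0.0928 in Skn-1 deficient and 7.77 ± 0.133 in wild type muscle (SD, n = 5 each). Its difference of -0.20 ± 0.07 (SE) had an unadjusted limma p under 0.05 and an adjusted p of 0.802. Cdh5, the cadherin of endothelial junctions, differed by -0.07. All 8 macrophage markers were ordinary, 4 averaging higher and 4 lower, and none passed. Cd163, a scavenger receptor, differed by 0.18 and Adgre1 by -0.10. All 5 measured fat cell markers were ordinary, 3 averaging higher and 2 lower, and none passed. The hormone gene Lep differed by 0.33 and the lipid droplet gene Cidec by -0.23, and Adipoq averaged 9.94 ± 0.768 in Skn-1 deficient and 9.94 ± 1.18 in wild type muscle (SD, n = 5 each). Of the other lists, 2 of 4 Schwann cell markers (2 higher), 5 of 7 lymphocyte markers (3 higher, 2 lower) and 7 of 10 muscle fibre markers (6 higher, 1 lower) were ordinary, and none passed. The part of RNA from tendon, fibroblasts or other cells in the collagen values was not tested.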

How the data were processed

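Total RNA of each muscle (100 ng, per the labels' protocols) was labelled with a 3′ in vitro transcription kit and hybridised to 1 array. The authors deposited a table of 1 value per probe set and array, read here as log2 and as normalized between arrays from its range and its near-equal medians. How they were summarised and scaled is not stated in the labels. Of 45101 rows, 64 array controls were left out. The platform annotation gave 34945 probe sets 1 gene, 932 several genes and 9160 none; 34741 of the first kind matched RefSeq's gene table. No collagen probe set had several genes. The collagen genes, the lists and the tests were chosen with earlier results of these data known.

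The genotype difference of each probe set came from a linear model on all 10 arrays (lmFit and eBayes without trend of limma 3.58.1, R 4.3.3), with Benjamini-Hochberg adjustment at 0.05 over all probe sets and, separately, over all genes with the probe set of highest mean. P-values cover the spread between these 5 arrays a group, and that number limits precision. Single values and type ratios were compared with exact permutation tests, and gene pairs with permutation tests of 100000 resamples (exact for under 10 arrays). Every collagen gene with an ordinary probe set was named, and in each other list the 2 such members with the smallest p, with the defining markers. The Schwann cell, lymphocyte and muscle fibre lists are given as counts, with the defining markers Acta1 and Ckm. On simulated data from the 18193 genes, limma recovered 46.0% of changes of 0.5 and 83.4% of changes of 1 (log2), with a mean of 8.5 false calls over 10 runs. These shares are not split by gene set, so they do not give the power for the collagen genes. Replicate numbers were checked as pairs, and same-numbered arrays had correlations of their deviations from -0.400 to 0.322. Arrays of different numbers were not compared in this way. The check therefore cannot show whether a shared number marks more than a label. Python 3.11.15, pandas 2.3.3, numpy 2.4.6, scipy 1.17.1 and matplotlib 3.10.9 were also used.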

Additional observations from a re-analysis of the deposited data

Results flagged for a closer look

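Among 36 groups of 5 arrays, made of the 18 ordinary collagen probe sets in both genotypes, 3 held an array far from the others, where chance gives about 1 in 20 groups. All 3 were wild type arrays. The dimmer Col1a1 probe set stood at 7.74 in wild type array 5, with the next array at 7.38. Col22a1 stood at 6.83 in wild type array 3, with the next at 7.20, and this array also had high epidermis and B cell genes. Skn-1 deficient arrays 1 and 4 and wild type array 1, also with Dsp above 7, stood at 7.30, 7.13 and 7.20. Skn-1 deficient array 5, also with Ms4a1 above 7, stood at 7.09. Col6a3 stood at 8.54 in wild type array 1, which also had Dsp above 7, with the next at 8.84.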

How the results depend on the processing

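No collagen probe set passed in any alternative: quantile normalization, median centring, filters on level or variation, a robust trend, array weights, the replicate block, each array left out, and, added after seeing the data, the 4 arrays with epidermis markers, the 2 with lymphocyte markers or all 5 left out. Between 0 and 4 collagen probe sets had an unadjusted limma p under 0.05, of which 0 or 1 was ordinary. Over all probe sets tested, the share with such a p ran from 1.47% (quantile normalization) to 9.68% (filter on variation). Between 11 and 14 ordinary collagen probe sets averaged higher. With the replicate block, 0 collagen probe sets passed and 2 of 82 had an unadjusted p under 0.05, where 7.15% of all probe sets did. Over all probe sets tested the calls ran from 0 to 143, against 86 as deposited and 5 with the block. The 143 were among the 6209 probe sets kept by the filter on variation.

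Directions turned for some genes, none of which passed. Array weights gave Col4a5 -0.0022. Without the 4 epidermis arrays Col17a1 was -0.10, Col22a1 -0.0477, Col5a2 0.0095 and P4hb 0.0147. Without the 2 lymphocyte arrays Col22a1 was -0.0015, and without all 5 Col17a1 was -0.10, Col5a2 0.0840, P4hb 0.0082 and Krt25 0.0185. The most variable probe set gave Fmod -0.0235, Itgb1 -0.0711 and Ppib -0.0506, and the mean of probe sets Itgb1 -0.0104. Leaving out each array gave -0.0909 to 0.0303 for Col5a2, -0.0030 to 0.0507 for Col4a5, -0.10 to 0.0438 for Col5a3, -0.0339 to 0.0838 for Col22a1, -0.0156 to 0.0722 for Ddr2, -0.0230 to 0.0963 for Itgb1 and -0.54 to 0.0570 for Cidec. Correlations lost their call for Col6a2 and Col6a3 on deviations (0.675) and without epidermis arrays (0.646), for Col3a1 and Col5a2 (0.788) and the Col1a1 probe sets (0.834) without epidermis arrays, and for the Col3a1 probe sets on deviations (0.635). Left-out arrays gave 0.596 to 0.780 for Col6a2 and Col6a3 and 0.611 to 0.821 for the Col3a1 probe sets. The causes of these changes were not tested, and the settings that leave out arrays also have fewer of them. The scale limits what can be read: 64 collagen probe sets of low variation carry no usable size.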
